A study of Mus musculus with 51 samples.

Results

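Adm, Ndrg1, Ankrd37, Mxi1, Kdm3a and Kdm4b are 6 genes that hypoxia-inducible factors (HIF) are known to switch on and whose products act in signalling or on chromatin rather than in metabolism. They were taken by name as 6 of the 48294 gene symbols that both deposited count tables of the series share, and all 6 passed the filter on low counts in both tables. The 6 genes and the gene lists below were chosen with earlier results of these data known. The study measured gene expression in gastrocnemius, the large calf muscle, of mice by 3′ tag sequencing of RNA, with 51 libraries in 10 groups and 1 library per animal, and asked how the clock factor BMAL1 and HIF act on glucose handling in obesity. In batch 1, mice with both Bmal1 alleles floxed (Bmal1fx/fx) served as controls for Bmal1KO mice, with 4 controls and 3 knockouts on regular chow, and 7 controls and 5 knockouts on high-fat diet. Batch 2 was on high-fat diet throughout and held 3 lines, each with controls of its own: 8 Bmal1fx/fx controls and 4 Bmal1KO, 6 Vhlfx/fx controls and 4 VhlKO, and 6 Bmal1fx/fx;Vhlfx/fx controls and 4 double knockouts (Bmal1KO;VhlKO). Thus every control carried floxed alleles, and none was free of them. The series' design text calls the Bmal1 deletion specific to skeletal muscle. The sources used here do not give the Cre driver, the deleted exons, the sex, age and harvest time of the mice, or the length of the diet.

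HIF is a pair of an oxygen-regulated alpha subunit (HIF-1α from Hif1a or HIF-2α from Epas1) and ARNT. With oxygen present, prolyl hydroxylases mark the alpha subunit, and VHL, part of a ubiquitin ligase, sends it to breakdown, so that cells without VHL keep HIF active in normal oxygen. HIF binds short DNA words, A or G followed by CGTG, at many genes of sugar use, vessel growth and feedback. BMAL1, encoded by Arntl, is a protein of the same bHLH-PAS family and binds the E-box CACGTG together with CLOCK. Adm encodes adrenomedullin, a secreted peptide that widens vessels and acts through the receptor CALCRL with RAMP2 or RAMP3. Ndrg1 encodes a cytoplasmic protein of stress and differentiation that Schwann cells also need for myelin. Ankrd37 encodes a small ankyrin repeat protein. Mxi1 encodes a repressor that pairs with MAX and competes with MYC. Kdm3a and Kdm4b encode Jumonji demethylases, enzymes that need oxygen and 2-oxoglutarate and take methyl groups off lysine 9 of histone H3.

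Promoter windows, from 250 bases before to 50 bases after an annotated start, were matched by symbol for 4 of the 6 genes and 8 starts (RefSeq, GRCm38.p6). No entry was matched for Ndrg1 or Kdm4b. The windows were searched on both strands for the HIF core words ACGTG and GCGTG and for the E-box CACGTG, which contains ACGTG. The 250 bases before the start are shown for the 3 genes with core words there that were called higher without VHL, 5′ to 3′ on the gene's own strand, with each core word in capitals. A word on the opposite strand reads CACGC.

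Adm: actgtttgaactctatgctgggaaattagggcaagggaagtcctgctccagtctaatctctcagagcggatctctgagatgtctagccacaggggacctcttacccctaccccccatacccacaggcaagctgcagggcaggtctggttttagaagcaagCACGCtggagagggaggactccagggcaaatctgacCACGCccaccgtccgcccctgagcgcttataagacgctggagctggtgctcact

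Ankrd37: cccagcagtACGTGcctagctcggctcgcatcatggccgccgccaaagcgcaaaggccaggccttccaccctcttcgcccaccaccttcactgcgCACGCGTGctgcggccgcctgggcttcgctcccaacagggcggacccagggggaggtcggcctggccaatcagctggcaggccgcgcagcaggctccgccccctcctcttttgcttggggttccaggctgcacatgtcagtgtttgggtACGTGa

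Mxi1: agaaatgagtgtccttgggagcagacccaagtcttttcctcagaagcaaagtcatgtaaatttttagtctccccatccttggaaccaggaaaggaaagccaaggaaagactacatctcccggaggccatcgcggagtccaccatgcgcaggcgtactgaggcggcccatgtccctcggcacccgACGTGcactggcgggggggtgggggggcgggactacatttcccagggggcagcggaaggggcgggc

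The Adm stretch lies at chr7:110627407-110627656 on the plus strand, the Ankrd37 stretch at chr8:45999851-46000100 on the minus strand, and the Mxi1 stretch, before the second of its 3 annotated starts, at chr19:53329163-53329412 on the plus strand. Positions are counted back from the start, with −1 as the base before it, to the first printed base of the word. Adm held 2 GCGTG words, at −90 and −54, both on the opposite strand. Ankrd37 held 4 words, ACGTG at −241 and −6 and a pair of GCGTG words on opposite strands at −155 and −152 that share bases. By GENCODE M21 a transcript of Ankrd37 begins slightly further upstream, so that the word at −6 lies in its first exon. The annotated gene as a whole reaches further upstream, to 46005707, so that the full Ankrd37 window lies inside it. The second start of Mxi1 held ACGTG at −66, the third start held it at −25, and the first start held neither word. The third start lies downstream of the second, and its word lies after the second start. For Kdm3a, the first of 3 starts held GCGTG at −27 and the other two held neither word. Among 32851 mouse promoter windows of this length, 43.8% held at least 1 of the core words, 20.6% at least 2 and 3.86% at least 4. None of the 8 windows held CACGTG, which 7.15% of all windows did. These matches describe letters and no binding was measured.

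Depth ran from 6.95 M to 14.7 M counts per library, and mitochondrial transcripts took 16.6 to 42.5% of them. Markers of fast muscle fibres (Acta1, Ckm, Myh4, Myh1, Tnnt3, Pvalb and Atp2a1) were detected in every group, with a summed level of 70530 to 126300 CPM (counts-per-million) per library. Levels here are CPM scaled by the trimmed mean of M-values (TMM), and changes are log2 fold changes ± standard error from edgeR's quasi-likelihood fit of all groups of a batch. A gene counted as called at a Benjamini-Hochberg adjusted p under 0.05 over all genes of the fit. Arntl lay between 5.29 and 9.03 CPM in Bmal1KO against 12.2 to 18.7 in batch 1 controls fed high-fat diet, and between 8.16 and 10.5 against 8.60 to 12.9 in batch 2. Vhl lay between 0.796 and 2.69 CPM in VhlKO against 1.69 to 5.09 in its controls, and between 1.64 and 3.84 against 3.48 to 5.62 in the double line. The tags come from 3′ ends, which the deletions may spare, so neither gene checks the labels. In such bulk libraries fewer cells of a type and less RNA per cell cannot be told apart.

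Loss of Vhl raised 5 of the 6 genes (Adm, Ankrd37, Ndrg1, Mxi1 and Kdm4b) and loss of both genes raised 4 of them, all but the demethylases. All 6 were called in both lines when libraries were scaled by their totals alone, which also shifted the median of all genes by 0.34 and 0.35. The share of all genes called under that scaling is not given here. Loss of Bmal1 alone lowered 1 gene, Mxi1, under either scaling. With TMM scaling the background of these counts was large. Since the 6 genes were chosen with earlier results known, setting them beside it describes them and is no test. Over all 13093 genes tested in batch 2, 17.7% were called higher and 37.2% were called in either direction without VHL, and 17.4% and 35.4% without both. Among the 6 genes the median log2 change was 0.60 for Vhl loss and 0.44 for loss of both, beside 0.01 and 0.01 over all genes. For loss of Bmal1 on high-fat diet, 9.00% of 12762 genes were called in batch 1 (5.18% lower) and 13.9% in batch 2 (6.96% lower), and the median of the 6 was 0.14 and −0.30, beside 0.00 and −0.01 over all genes. Libraries of knockout and control did not overlap in CPM for 5 of the 6 genes in the Vhl line, 3 in the double line and 1 in each batch of the Bmal1 line. Over all genes, 10.1% of genes stood wholly above their controls without VHL and 11.2% without both, and 3.57% and 5.06% stood wholly below without BMAL1 in batches 1 and 2. Scaling by library totals alone shifted the median of all genes by 0.34 in the Vhl line and 0.35 in the double line, and the smaller rises grew with it (Mxi1 from 0.43 to 0.78 in both, Ndrg1 from 0.57 to 0.91 and from 0.45 to 0.81, Kdm4b from 0.63 to 0.98 in VhlKO). Levels were compared within a batch only.

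**Figure D1:**
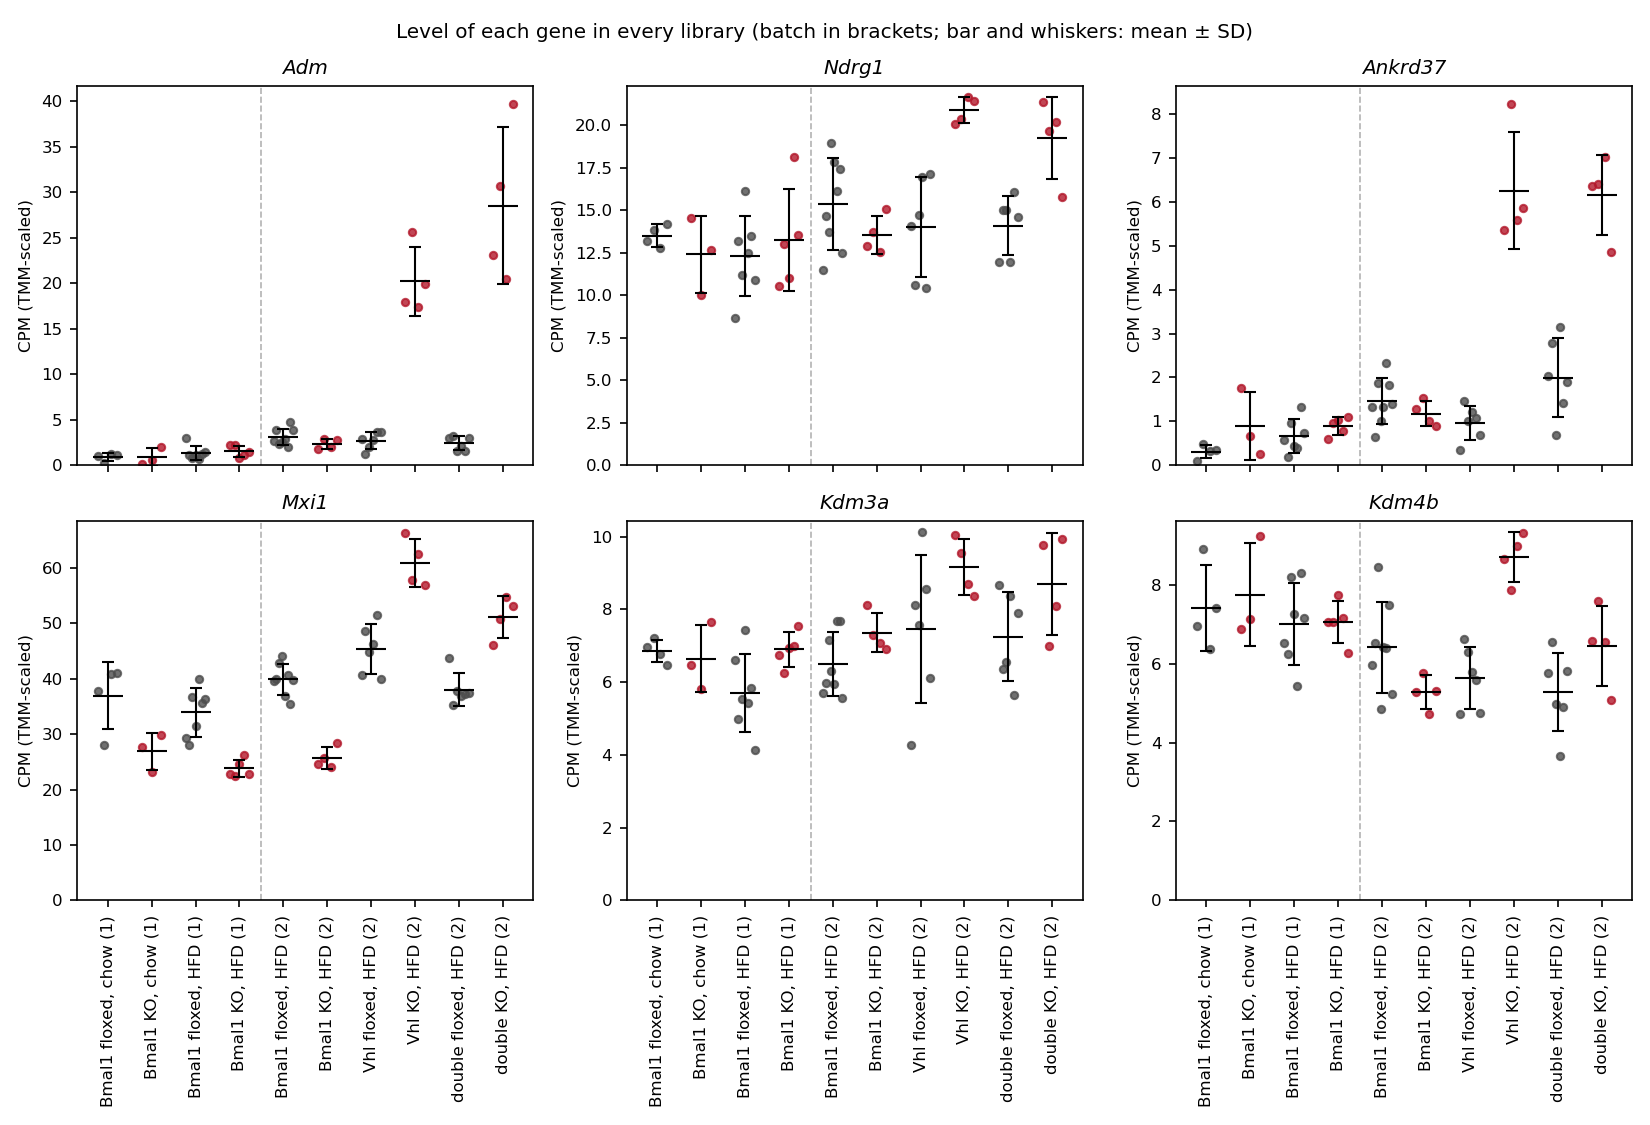
Level of each gene in every library (TMM-scaled CPM, linear axis from 0), by group, with the batch in brackets, floxed controls in grey and knockouts in red; bars are the mean and whiskers 1 SD. Adm stood at 17.4 to 39.7 CPM in the libraries without VHL and at most at 4.70 in all others, and Mxi1 was lower than its controls in Bmal1KO and higher in VhlKO.

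Adm (chromosome 7, 110627661 to 110629820, plus strand, GRCm38) gave the largest change of the 6 genes. In VhlKO libraries Adm was at 17.4, 17.9, 19.9 and 25.6 CPM, and in the 6 controls it ran from 1.26 to 3.68 with a median of 2.80. In double knockouts Adm was at 20.5, 23.1, 30.7 and 39.7 CPM, and its controls ran from 1.52 to 3.22 with a median of 2.54. Both knockout groups lay far above their controls, with no overlap. The fitted rise was 7.41-fold for Vhl loss (log2 2.89 ± 0.23, 95% interval 2.43 to 3.35, edgeR adjusted p = 2.18e-12) and 11.9-fold for loss of both (log2 3.57 ± 0.22, interval 3.13 to 4.02, edgeR adjusted p = 2.06e-15). Without BMAL1 alone, Adm was at 1.76, 2.02, 2.78 and 2.89 CPM in batch 2, inside the control range of 1.99 to 4.70 (median 2.74) but for its lowest library, and its log2 change of −0.38 ± 0.27 was not called (edgeR adjusted p = 0.43, interval −0.92 to 0.16). In batch 1 Adm was low, with 1 to 36 counts per library. On high-fat diet its levels were 0.789, 1.10, 1.42, 2.17 and 2.18 CPM in Bmal1KO against 0.704 to 3.01 (median 1.16) in controls, which overlapped (0.17 ± 0.46, edgeR adjusted p = 0.91). The group means of batch 2 fell in the order double knockout (28.5 ± 8.61 CPM, SD), VhlKO (20.2 ± 3.78), Bmal1 line controls (3.10 ± 0.93), Vhl line controls (2.70 ± 0.94), double line controls (2.40 ± 0.76) and Bmal1KO (2.36 ± 0.56). The 2 highest groups overlapped each other, and so did the 4 lowest.

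Transcripts of the receptor side of adrenomedullin also changed, in lines where endothelial markers rose too (below). The part of vessel cells in these changes was not tested. RAMP2 and RAMP3 are the accessory proteins that turn CALCRL into an adrenomedullin receptor, RAMP1 turns it into a receptor of the related peptide CGRP, and ACKR3 is a decoy receptor. Of the 8 genes of the family and its receptors besides Adm, 5 had enough counts to be tested, and 4 of the 5 were called higher in VhlKO and 2 in double knockouts, beside 17.7% and 17.4% of all genes. Ramp2 was at 20.9 to 24.6 CPM in VhlKO and 6.88 to 12.3 in controls, with no overlap (log2 1.07 ± 0.12, edgeR adjusted p = 1.2e-09), and at 13.9 to 18.4 against 6.90 to 11.5 in the double line (0.81 ± 0.12, edgeR adjusted p = 7.1e-07). Ramp3, a gene with few counts, rose by 1.94 ± 0.36 in VhlKO and by 0.87 ± 0.35 in double knockouts, where its call (edgeR adjusted p = 0.046) was lost when any 1 of controls 1 to 4 or knockouts 1 to 3 was left out. Ramp1 rose in VhlKO (0.44 ± 0.11) and stood at −0.02 ± 0.11 in double knockouts, a value that became 0.33 when libraries were scaled by their totals alone. For Calcrl itself the values were 0.23 ± 0.13 and 0.08 ± 0.13, neither called (0.57 and 0.43, both called, with library totals alone). Ackr3 rose in VhlKO (0.42 ± 0.15, edgeR adjusted p = 0.025), a call lost without any 1 of controls 2, 4 and 5 or of knockout 3.

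Ndrg1 (chromosome 15, 66929318 to 66969640, minus strand) rose by 1.49-fold without VHL and by 1.36-fold without both. In VhlKO libraries it was at 20.1, 20.4, 21.4 and 21.7 CPM, all above the controls, which ran from 10.4 to 17.2 with a median of 14.4. In double knockouts it was at 15.8, 19.7, 20.2 and 21.4 CPM, and its controls ran from 11.9 to 16.1 with a median of 14.8, so that the lowest knockout library fell inside the control range. The log2 change was 0.57 ± 0.13 for Vhl loss (edgeR adjusted p = 3.23e-04) and 0.45 ± 0.13 for loss of both (edgeR adjusted p = 0.0041). Loss of Bmal1 left its values overlapping: in batch 2 Ndrg1 was at 12.5, 12.9, 13.7 and 15.1 CPM in knockouts and 11.5 to 19.0 (median 15.4) in controls (−0.18 ± 0.12, edgeR adjusted p = 0.40). On high-fat diet in batch 1 the 5 knockouts were at 10.5, 11.0, 13.0, 13.6 and 18.1 CPM and the controls at 8.69 to 16.1 (median 12.5), a change of 0.11 ± 0.14 that was not called (edgeR adjusted p = 0.76). Among the means of batch 2, VhlKO (20.9 ± 0.77 CPM) and double knockouts (19.3 ± 2.41) came first and overlapped each other. The remaining 4 groups had means from 13.6 to 15.4 CPM and overlapped throughout.

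The rest of the NDRG family went the other way or was not called. Ndrg2 was at 756 to 851 CPM in VhlKO and 1103 to 1296 in controls, and fell by 0.57 ± 0.06 on the log2 scale (edgeR adjusted p = 1.9e-11). In double knockouts Ndrg2 stood at −0.19 ± 0.06, a call that turned to 0.17 with library totals alone. Ndrg3 stood at −0.31 ± 0.12 in VhlKO (edgeR adjusted p = 0.035) and 0.04 with library totals alone, and it lost its call without any 1 of controls 1, 3 and 4 or knockouts 2 and 3. Ndrg4 was not called in either (0.12 ± 0.39 and 0.36 ± 0.36).

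Ankrd37 (chromosome 8, 45996902 to 46005707, minus strand) rose strongly in both lines that lack VHL. Its levels in VhlKO were 5.37, 5.58, 5.86 and 8.24 CPM, against 0.355 to 1.47 (median 1.04) in controls. Double knockouts held 4.85, 6.36, 6.41 and 7.01 CPM, against 0.683 to 3.15 (median 1.97) in controls. Neither pair of groups overlapped. Its rise was 6.50-fold for Vhl loss (log2 2.70 ± 0.29, interval 2.11 to 3.28, edgeR adjusted p = 2.04e-10) and 3.10-fold for loss of both (1.63 ± 0.25, interval 1.12 to 2.14, edgeR adjusted p = 9.95e-07). The knockout means were alike, at 6.26 ± 1.33 and 6.16 ± 0.92 CPM, while the control means were 0.965 ± 0.40 and 1.99 ± 0.90. Below these 2 groups came double line controls, Bmal1 line controls (1.46 ± 0.53), Bmal1KO (1.18 ± 0.28) and Vhl line controls, which overlapped one another. Loss of Bmal1 in batch 2 gave 0.898, 1.01, 1.27 and 1.52 CPM, inside the control range of 0.642 to 2.33 (−0.32 ± 0.31, edgeR adjusted p = 0.61). In batch 1 Ankrd37 had only 1 to 18 counts per library. Its log2 change there was 0.43 ± 0.51 on high-fat diet, with an interval from −0.61 to 1.47 (0.66-fold to 2.78-fold). On chow it was 1.45 ± 0.73, from −0.03 to 2.92 (0.98-fold to 7.59-fold), so that a rise of several-fold on chow could go uncalled at this depth.

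Ankrd37 overlaps 2 genes on the opposite strand, Ufsp2 over 57 bases and Lrp2bp over 6405 bases, and the sources used here do not say whether counting used strand. Without strand, reads from such partners cannot be told apart where exons overlap. Tags come from 3′ ends. By gene span that of Ankrd37 lies at 45996902, inside the overlap with Ufsp2. Lrp2bp runs on the plus strand from 45999303 to its 3′ end at 46029477, which is outside Ankrd37. Ufsp2 was not called in either line that lacks VHL (−0.11 ± 0.08 in VhlKO, 0.23 with library totals alone, and 0.17 ± 0.08 in double knockouts). Lrp2bp rose in all of them, by 1.33 ± 0.14 in VhlKO, 1.69 ± 0.13 in double knockouts and also 0.88 ± 0.12 in Bmal1KO of batch 2, where Ankrd37 did not pass. The part of Ufsp2 or Lrp2bp reads in the Ankrd37 counts was not tested.

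Mxi1 (chromosome 19, 53310518 to 53375810, plus strand) was the 1 gene of the 6 called in every knockout line on high-fat diet, lower without BMAL1 and higher without VHL. In batch 1 the Bmal1KO libraries on high-fat diet held 22.5, 22.8, 22.8, 24.7 and 26.2 CPM, and the controls ran from 28.1 to 40.0 with a median of 35.6. In batch 2 they held 24.1, 24.6, 25.7 and 28.5 CPM, and the controls ran from 35.5 to 44.2 with a median of 39.9. In both batches every knockout library lay below every control. The log2 change was −0.51 ± 0.11 in batch 1 (0.70-fold, edgeR adjusted p = 0.0012) and −0.64 ± 0.08 in batch 2 (0.64-fold, edgeR adjusted p = 1.27e-08), and the difference between batches was −0.13 ± 0.13 (interval −0.38 to 0.12, edgeR adjusted p = 1). On chow the 3 knockouts held 23.2, 27.7 and 29.8 CPM and the 4 controls 28.1, 37.9, 40.9 and 41.0. There the lowest control fell inside the knockout range, and the change of −0.46 ± 0.14 did not pass (edgeR adjusted p = 0.062). Left without that control, animal 2, it was −0.56 and passed (edgeR adjusted p = 0.00996).

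In the lines that lack VHL, Mxi1 was higher than in controls. VhlKO libraries held 57.0, 57.9, 62.5 and 66.2 CPM against 39.9 to 51.5 (median 45.6) in controls. Double knockouts held 46.1, 50.7, 53.1 and 54.7 CPM against 35.3 to 43.7 (median 37.4). Both knockout groups were wholly above their controls. The changes had nearly the same size, 0.43 ± 0.08 for Vhl loss (1.35-fold, edgeR adjusted p = 1.54e-05) and 0.43 ± 0.08 for loss of both (1.35-fold, edgeR adjusted p = 1.50e-05). By group mean the order in batch 2 was VhlKO (60.9 ± 4.30 CPM), double knockouts (51.2 ± 3.73), Vhl line controls (45.3 ± 4.50), Bmal1 line controls (39.9 ± 2.83), double line controls (38.1 ± 2.92) and Bmal1KO (25.7 ± 1.94). VhlKO stood clear of the double knockouts and Bmal1KO clear of all other groups, while the neighbours between them overlapped.

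Genes of the MAX network around Mxi1 were called in both directions. MAX is the shared partner, MYC the activator, MXD4 and MNT further repressors, and MLXIPL (ChREBP) and MLXIP (MondoA) glucose-sensing relatives that pair with MLX. Of 12 network genes besides Mxi1, 9 were tested, and 3 rose and 3 fell in VhlKO, 2 rose and 2 fell in double knockouts, and 1 rose and 1 fell in Bmal1KO of each batch on high-fat diet. Over all genes, 17.7% rose and 19.5% fell in VhlKO, 17.4% and 18.1% in double knockouts, 3.82% and 5.18% in Bmal1KO of batch 1, and 6.94% and 6.96% in batch 2, and with 9 genes tested these counts show nothing particular to the network. Max was at 35.8 to 40.7 CPM in VhlKO against 18.4 to 23.5 in controls (0.91 ± 0.08, edgeR adjusted p = 3.0e-12), and at 48.8 to 52.4 in double knockouts against 18.1 to 25.5 (1.21 ± 0.08, edgeR adjusted p = 4.2e-17). Mxd4 rose by 0.87 ± 0.13 in VhlKO, 0.65 ± 0.13 in double knockouts and 0.54 ± 0.09 in Bmal1KO of batch 1. Its value of 0.35 ± 0.12 in Bmal1KO of batch 2 was at the threshold and lost the call in 9 of 12 fits that left out 1 library. Mnt fell without BMAL1, by 0.93 ± 0.25 in batch 1 and 0.62 ± 0.16 in batch 2. The batch 1 call was lost without knockout 5 (−0.79, edgeR adjusted p = 0.054). Mlxipl fell by 1.37 ± 0.11 in VhlKO and by 0.95 ± 0.10 in double knockouts. Myc was not called in any knockout line on high-fat diet.

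Of the demethylases, Kdm4b was called in VhlKO and Kdm3a in neither line that lacks VHL. Kdm4b (chromosome 17, 56326062 to 56402870, plus strand) was at 7.85, 8.65, 8.98 and 9.31 CPM in VhlKO, wholly above its controls at 4.73 to 6.63 (median 5.68), a rise of 1.55-fold (log2 0.63 ± 0.15, interval 0.32 to 0.93, edgeR adjusted p = 8.42e-04). In double knockouts Kdm4b was at 5.09, 6.55, 6.58 and 7.57 CPM and overlapped its controls at 3.67 to 6.54 (median 5.37). The change of 0.29 ± 0.15 was not called (edgeR adjusted p = 0.13, interval −0.01 to 0.60). Without BMAL1 alone it was at 4.72, 5.29, 5.30 and 5.77 CPM in batch 2, in the lower part of the control range of 4.84 to 8.45 or just below it (−0.28 ± 0.15, edgeR adjusted p = 0.22), and at 6.26, 7.05, 7.06, 7.15 and 7.73 in batch 1 on high-fat diet, inside the range of 5.43 to 8.29 (0.01 ± 0.15). By mean, VhlKO (8.70 ± 0.62 CPM) came first and did not overlap the double knockouts (6.45 ± 1.02), and the other 4 groups of batch 2, between 5.27 and 6.41, overlapped.

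Kdm3a (chromosome 6, 71588972 to 71632990, minus strand) passed in no comparison with TMM scaling. It was at 8.37, 8.70, 9.55 and 10.0 CPM in VhlKO against 4.26 to 10.1 (median 7.83) in controls, and at 6.99, 8.09, 9.75 and 9.94 in double knockouts against 5.65 to 8.68 (median 7.23). Both pairs overlapped. The changes were 0.31 ± 0.16 (interval −0.01 to 0.62, edgeR adjusted p = 0.12) and 0.25 ± 0.15 (interval −0.05 to 0.56, edgeR adjusted p = 0.20). The highest control value, 10.1 CPM, belongs to Vhlfx/fx control 4, and without it the Vhl change was 0.42 and passed (edgeR adjusted p = 0.032). Without the lowest, control 1 at 4.26 CPM, it was 0.19 and did not pass (edgeR adjusted p = 0.325). The interval over all libraries allows a rise of up to 1.54-fold. Knockouts of Bmal1 on high-fat diet held 6.25, 6.75, 6.94, 6.99 and 7.55 CPM against 4.14 to 7.44 in batch 1 (0.27 ± 0.15) and 6.91, 7.08, 7.29 and 8.13 against 5.55 to 7.69 in batch 2 (0.17 ± 0.15), neither called. All neighbours among the 6 group means of batch 2, from 6.50 ± 0.88 to 9.16 ± 0.77 CPM, overlapped. With library totals alone, Kdm3a was called in both (0.66 and 0.60) and Kdm4b also in the double line (0.65).

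The other Jumonji genes did not move as a block. Of 22 listed besides Kdm3a and Kdm4b, 21 were tested, and 4 rose and 4 fell in VhlKO (median 0.17), 4 rose and 2 fell in double knockouts (median 0.00), and 0 rose and 1 fell in Bmal1KO of each batch on high-fat diet. Beside the shares of all genes called (17.7% higher and 19.5% lower in VhlKO, 17.4% and 18.1% in double knockouts), the higher counts and the VhlKO lower count were near the background. Jmjd6, a lysine hydroxylase, rose by 0.50 ± 0.09 and 0.58 ± 0.09 in VhlKO and double knockouts, and Phf8, which acts on lysine 9, by 0.43 ± 0.15 and 0.60 ± 0.14. Without control 5 or knockout 1 the Phf8 call in VhlKO was lost (0.37 and 0.35). Kdm8 fell in both (−1.16 ± 0.26 and −1.20 ± 0.25). Of the nearest relatives, Kdm3b stood at −0.13 ± 0.16 in VhlKO, not called, and at −0.46 ± 0.15 in double knockouts (edgeR adjusted p = 0.016, lost without double knockout 1 and with library totals alone). Kdm4a was not called in VhlKO (−0.08 ± 0.14) and rose in double knockouts (0.51 ± 0.13), and Kdm4c was not called in either (0.34 ± 0.25 and 0.36 ± 0.23; with library totals alone 0.69 and 0.72, both called). Phf2, a relative of Phf8, was the 1 gene lower without BMAL1, at −0.47 ± 0.10 in batch 1 and −0.27 ± 0.08 in batch 2. Both calls were lost with library totals alone (−0.31 and −0.18), and the batch 2 call also without control 9 or any 1 of knockouts 6, 8 and 9 (−0.23 to −0.27).

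**Figure D2:**
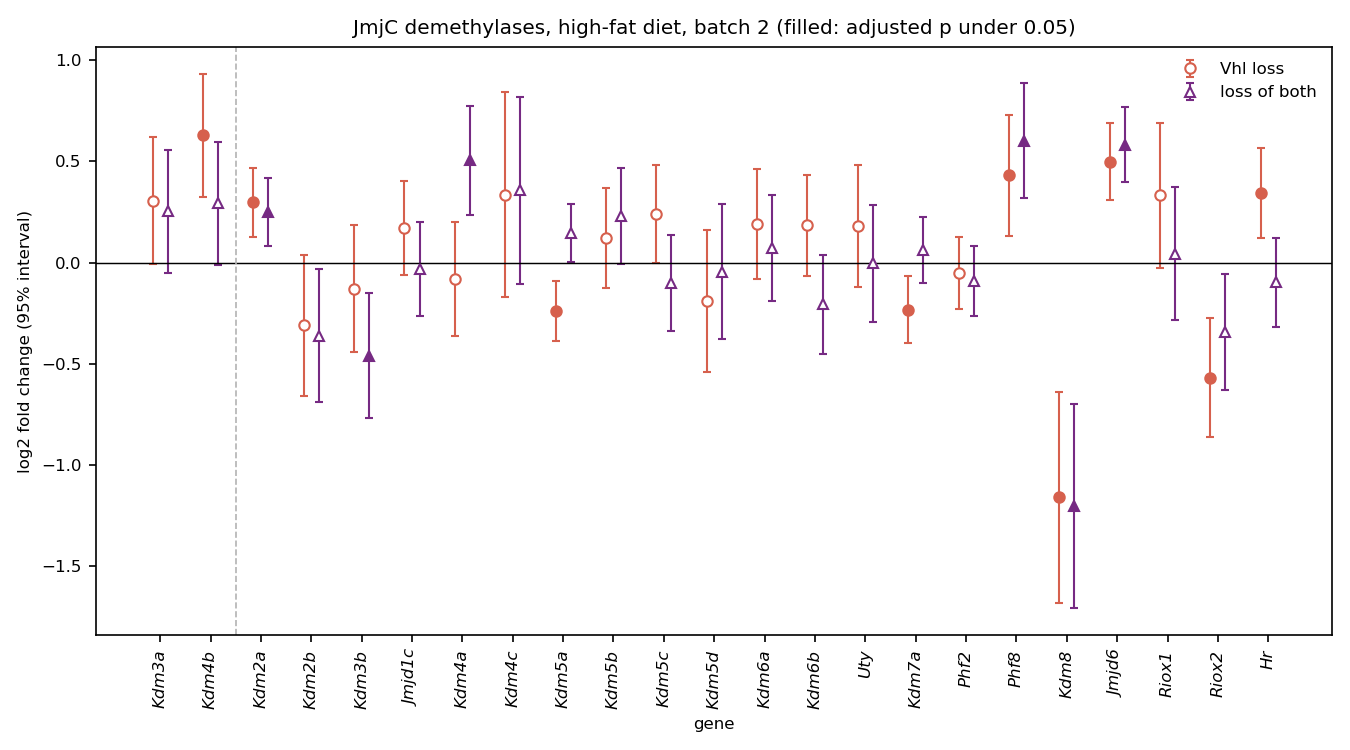
Log2 fold change (y axis, with 95% interval) of Kdm3a, Kdm4b and the other tested Jumonji demethylase genes (x axis) for Vhl loss (circles) and loss of both (triangles) on high-fat diet in batch 2; filled symbols had an adjusted p under 0.05. Kdm4b is filled for Vhl loss only (0.63), Kdm3a is open in both, and Kdm8 lies lowest at −1.16 and −1.20.

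Effects of 2 knockouts were compared directly, each taken against its own controls, so that no control is shared. The Vhl effect exceeded the Bmal1 effect of batch 2 in 5 of 6 genes, where 12.2% of all genes did: Adm by 3.27 ± 0.35, Ankrd37 by 3.02 ± 0.43, Mxi1 by 1.06 ± 0.11, Kdm4b by 0.91 ± 0.21 and Ndrg1 by 0.75 ± 0.18, with edgeR adjusted p from 1.50e-10 to 0.0011. Kdm3a differed by 0.13 ± 0.22 (interval −0.30 to 0.56). The double effect exceeded the Bmal1 effect in 4 genes, beside 7.69% of all genes: Adm (3.95 ± 0.35), Ankrd37 (1.95 ± 0.40), Mxi1 (1.06 ± 0.11) and Ndrg1 (0.63 ± 0.18). Kdm4b, at 0.58 ± 0.21, missed the threshold narrowly (edgeR adjusted p = 0.052) and passed with DESeq2, with library totals alone (0.86), with an average log2 CPM of at least 1, with no robust option, and without any 1 of 5 libraries (controls 11 and 15 of the Bmal1 line, controls 2 and 6 and knockout 4 of the double line).

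**Figure D3:**
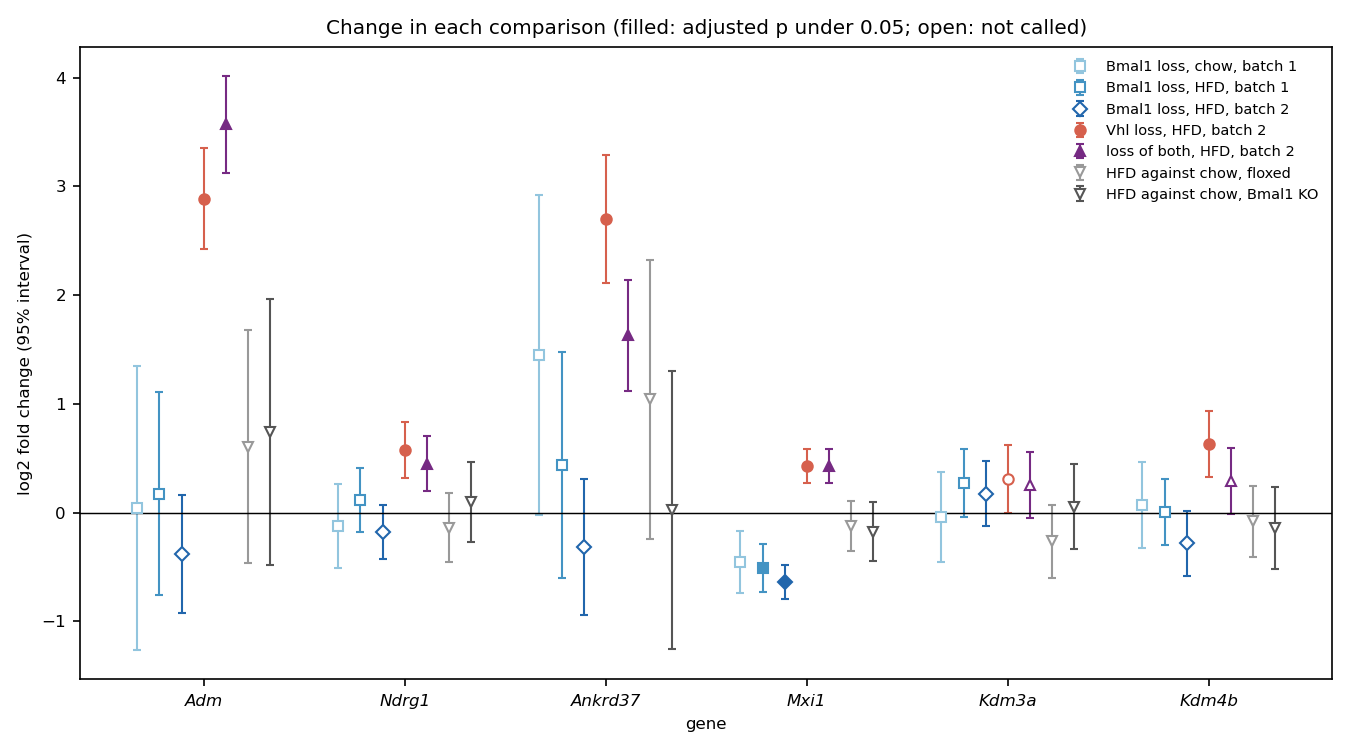
Log2 fold change (y axis, with 95% interval) of the 6 genes in each of 7 comparisons of knockout with control or diet with diet; filled symbols had an adjusted p under 0.05 and open ones did not. Adm and Ankrd37 reach 2.89 and 2.70 for Vhl loss, and Mxi1 is the 1 gene with filled symbols on both sides of 0.

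What the loss of Bmal1 added to the loss of Vhl was asked by the double effect minus the Vhl effect. This difference holds the effect of Bmal1 loss itself together with any change in the response to Vhl loss. None of the 6 genes was called (edgeR), 2 of them had an unadjusted p under 0.05, DESeq2 called 0, and over all genes 8.56% were called. For Mxi1 the difference was 0.00 ± 0.11 (interval −0.22 to 0.22) and for Ndrg1 −0.13 ± 0.18 (interval −0.49 to 0.24). For Adm it was 0.68 ± 0.33 (interval 0.00 to 1.36, edgeR adjusted p = 0.22) and for Ankrd37 −1.07 ± 0.40 (interval −1.87 to −0.26, edgeR adjusted p = 0.087). Without control 3 of the double line the Ankrd37 difference was −1.27 and passed (edgeR adjusted p = 0.023), and with no filter on low counts it was −1.09 and passed (edgeR adjusted p = 0.048). The demethylases differed by −0.34 ± 0.22 (Kdm4b) and −0.05 ± 0.22 (Kdm3a).

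A contrast added after the values were seen set the double effect against the sum of both single effects. It was above the sum for Mxi1 by 0.64 ± 0.13 (interval 0.37 to 0.91, edgeR adjusted p = 0.0028), the 1 gene of the 6 that passed, where 2.15% of all genes were called higher and 3.79% in either direction. For Mxi1 the single effects were −0.64 and 0.43 and the double effect was 0.43, the size of the Vhl effect. Adm lay above the sum by 1.06 ± 0.43 (edgeR adjusted p = 0.18; 1.03 and called with no filter on low counts), and the other 4 lay between −0.75 and 0.06.

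**Figure D4:**
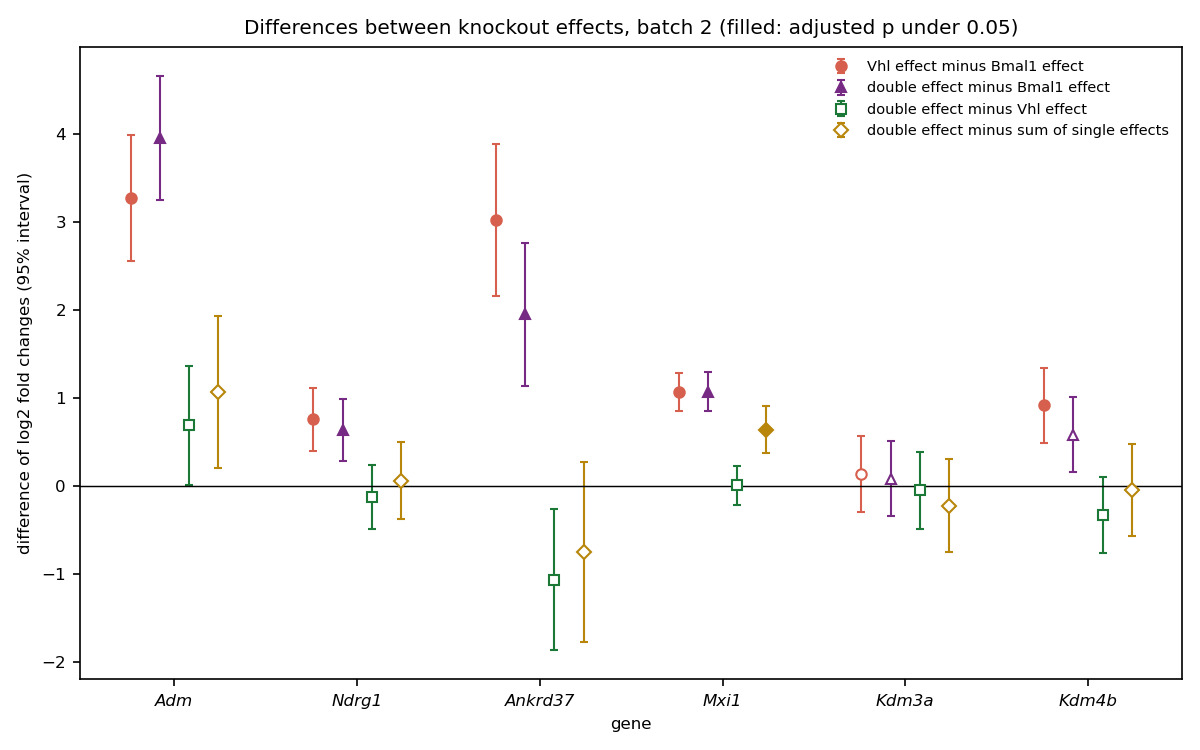
Differences between knockout effects (y axis, log2, with 95% interval) for the 6 genes in batch 2; filled symbols had an adjusted p under 0.05. The Vhl effect minus the Bmal1 effect is filled for 5 genes, the double effect minus the Vhl effect for none, and the double effect minus the sum of single effects for Mxi1 alone (0.64).

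Diet within genotype was measured in batch 1. None of the 6 genes was called by edgeR for high-fat diet against chow in controls or in Bmal1KO, where 2.37% and 3.28% of all genes were, and 0 had an unadjusted p under 0.05 in either, and 0 were called by DESeq2. In controls the changes were 0.61 ± 0.53 for Adm, −0.14 ± 0.15 for Ndrg1, 1.04 ± 0.63 for Ankrd37, −0.12 ± 0.11 for Mxi1, −0.27 ± 0.17 for Kdm3a and −0.08 ± 0.16 for Kdm4b. In Bmal1KO they were 0.74 ± 0.60, 0.10 ± 0.18, 0.03 ± 0.63, −0.18 ± 0.13, 0.05 ± 0.19 and −0.14 ± 0.19 in the same order. Control ranges on chow and on high-fat diet overlapped for all 6 genes, for example 12.8 to 14.2 against 8.69 to 16.1 CPM for Ndrg1, and 0.241 to 1.20 against 0.704 to 3.01 for Adm. The intervals for Mxi1 (−0.35 to 0.11 in controls) and Ndrg1 (−0.45 to 0.18) were narrow, and those for Adm (−0.47 to 1.68) and Ankrd37 (−0.24 to 2.32) were wide. Diet by genotype was called by edgeR for 0 of the 6 genes and for 0 of 12762 genes (575 at an unadjusted p under 0.05, and 3 by DESeq2). Loss of Bmal1 on chow was called for 0 of the 6 (edgeR; 1, Mxi1, at an unadjusted p under 0.05; 0 by DESeq2) beside 3.84% of all genes. The change of the Bmal1 effect between the batches was called for 0 of the 6 and 0 of 13926 genes (edgeR; 715 at an unadjusted p under 0.05; 0 by DESeq2).

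Other HIF-induced genes, 48 listed and 47 tested in batch 2, went largely the same way as the 6. In VhlKO 28 rose and 4 fell (median 0.63), and in double knockouts 28 rose and 6 fell (median 0.72), beside 17.7% and 17.4% of all genes that rose and 19.5% and 18.1% that fell. The steepest were Ak4, a mitochondrial adenylate kinase (6.39 ± 0.13 and 6.31 ± 0.13), and Car9, a carbonic anhydrase (6.17 ± 0.17 and 6.04 ± 0.16). The collagen hydroxylase gene P4ha1 rose by 2.39 ± 0.09 and 2.11 ± 0.09, and Egln1, a hydroxylase that marks HIF itself, by 1.37 ± 0.06 and 1.18 ± 0.06. Adm and Ankrd37 lay above the median of the list in both, and the other 4 below it. Without BMAL1, 1 rose and 9 fell of 46 tested in batch 1, and 1 rose and 11 fell of 47 in batch 2 (median −0.17 in each). Slc2a3, a glucose transporter gene, was the steepest of those named, at −4.18 ± 0.48 and −3.29 ± 0.34, and it was also lower in double knockouts (−3.97 ± 0.38). Mxi1 shared its direction there with Slc16a3, a lactate transporter gene (−0.87 ± 0.12 and −0.59 ± 0.08). In double knockouts Slc16a3 stood at −0.28 ± 0.08, which turned to 0.08 with library totals alone. Of the HIF subunits, Epas1 rose in VhlKO and double knockouts (0.48 ± 0.08 and 0.47 ± 0.08), while Hif1a was at −0.15 ± 0.13, not called, and −0.60 ± 0.12 (−0.25 and not called with library totals alone).

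Markers of other cell types moved with Vhl loss and stand beside the rises of Adm, Ankrd37, Ndrg1, Mxi1 and Kdm4b, and beside those of the adrenomedullin receptor genes. Endothelial markers (Pecam1, Cdh5, Kdr, Tie1, Tek, Emcn, Egfl7 and Esam) rose in 8 of 8, with a summed level of 293 to 374 CPM in VhlKO against 145 to 163 in controls, and 242 to 330 against 146 to 161 in the double line. Smooth muscle and pericyte markers rose in 5 of 6 in both, at 448 to 520 against 254 to 286 CPM and 451 to 527 against 249 to 281. Of 7 macrophage markers 4 rose in VhlKO and 0 in double knockouts. Of 7 fibre markers 6 fell in VhlKO and 7 in double knockouts, from 100700 to 125200 down to 70530 to 78640 CPM and from 114400 to 122900 down to 80280 to 83150. Of 7 adipocyte markers 0 rose and 2 fell in VhlKO, and 1 rose and 3 fell in double knockouts. Over all genes, 17.7% were called higher and 37.2% in either direction in VhlKO, and 17.4% and 35.4% in double knockouts. No marker of the endothelial, smooth muscle, macrophage, adipocyte or fibre lists was at 0 in every library of a group. Mitochondrial shares were also lower without VHL, at 32.2 ± 3.51% against 37.1 ± 2.30% (SD), and 19.7 ± 3.06% against 27.4 ± 2.66% in the double line. With mitochondrial genes left out of the fit the calls of the 6 genes were the same in both comparisons. The part of the cell type markers in these results was not tested. In Bmal1KO, where Mxi1 fell, 1 of 7 fibre markers fell in each batch and the endothelial list had 1 of 8 higher in batch 1 and 0 in batch 2. Of all genes, 9.00% and 13.9% were called there in either direction. Ighm, the 1 lymphocyte marker with enough counts to be tested, rose in both batches, by 2.55 and 1.94.

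Over the 10 group means, each gene centred within its batch, the nearest profiles among 7655 genes were sought, for the 5 genes called in a knockout line, by the root mean square difference of log2 CPM. The 2 genes nearest to Mxi1 were Dusp7, a phosphatase of MAP kinases (distance 0.085), and Ldha, lactate dehydrogenase A (0.091), against a median distance of 0.389. Adm was nearest to Mif, a secreted cytokine (0.395), and Rgs4, a regulator of G protein signalling (0.416), with a median of 1.24. Ndrg1 was nearest to Xiap, an inhibitor of caspases (0.044), and Rbck1, a part of a ubiquitin ligase (0.051), with a median of 0.268. Ankrd37 was nearest to Iigp1, an interferon-induced GTPase (0.314), and Ube2l6, an interferon-induced conjugating enzyme (0.359), with a median of 0.918. The log2 changes of Iigp1 were 3.36 in VhlKO and only 0.36 in double knockouts, against 2.70 and 1.63 for Ankrd37. Those of Ube2l6 were 2.40 and 1.26. Kdm4b was nearest to Cd74, the invariant chain of MHC class II (0.063), and Mapk8ip3, a scaffold of JNK (0.078), with a median of 0.270. Mif and Ldha have near-identical pseudogene copies, so their counts are uncertain. These distances describe 10 means that share libraries and batches and carry no test.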

How the data were processed

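The deposited counts per gene symbol were made by the authors, per the submitters' processing notes, with FastQC 0.11.4, STAR 2.6.0 and HTSeq (version not given in the sources used here) on mm10 (GRCm38.p4). Per the labels' protocols, libraries were made from 300 ng of RNA with the QuantSeq 3′ kit, so a gene's level rests on tags of its 3′ end. The deposited normalized signal (counts scaled by the authors in edgeR 3.26.8, as the submitters’ processing notes state) served as an alternative only.

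Each count table listed 48321 symbols. In batch 2, 27 of them had been turned into dates and were kept in the fit but not matched. No column was left out. In R 4.3.3, edgeR 4.0.16 was run with filterByExpr, TMM scaling and robust quasi-likelihood fits of all groups of a batch (12762 and 13093 genes, and 13926 for the contrast between batches). CPM were computed from TMM-scaled totals of the kept genes. Alternatives were DESeq2 1.42.0, limma 3.58.1 on log2 of the normalized values plus 1, RLE scaling, library totals alone, mitochondrial genes left out, no filter, an average log2 CPM of at least 1, no robust option, only the groups of a contrast, the replicate number as a block, a stricter adjusted p of 0.01, and each library left out in turn.

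The 6 genes and the gene lists were chosen with earlier results of these data known. Named genes were the 6, up to 4 list genes with the smallest p in a comparison, partners and relatives by role, and the 2 nearest profiles (average log2 CPM of at least 2, with 0.1 CPM added before the log). Genes of a list outside this rule are counted only. The result of 1 marker list is not reported here.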

Additional observations from a re-analysis of the deposited data

Results flagged for a closer look

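In 54 sets of values (1 gene in 1 group of 4 to 8 libraries each) the highest and lowest library were set against the rest with Dixon's 95% critical values, which chance alone passes in about 1 of 20 groups. In 3 sets the highest library passed. Adm in batch 1 was at 3.01 CPM in control 1 on high-fat diet, where the next was at 1.46 and the lowest at 0.704. Ankrd37 was at 8.24 CPM in VhlKO 2, where the next was at 5.86 and the lowest at 5.37. Mxi1 was at 43.7 CPM in control 1 of the double line, where the next was at 37.7 and the lowest at 35.3. No call of these 3 genes in the Vhl line, the double line or the Bmal1 line on high-fat diet was lost when any 1 library was left out.

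Effects differed between knockout lines in 10 tests of the difference itself (edgeR's quasi-likelihood test, adjusted over all genes). The Vhl effect exceeded the Bmal1 effect by 3.27 for Adm, 3.02 for Ankrd37, 1.06 for Mxi1, 0.91 for Kdm4b and 0.75 for Ndrg1 on the log2 scale. The double effect exceeded the Bmal1 effect by 3.95 for Adm, 1.95 for Ankrd37, 1.06 for Mxi1 and 0.63 for Ndrg1. The double effect on Mxi1 was 0.64 above the sum of the single effects.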

How the results depend on the processing

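For the counts of called genes among the 6, over 13 comparisons and 351 alternative fits, 345 counts stayed within 1.5 times the reported one. Leaving out 1 library gave 0 to 1 called genes for Bmal1 loss on chow (1, Mxi1, without control 2) and 0 to 1 for the double effect minus the Vhl effect (1, Ankrd37, without control 3 of the double line). With no filter on low counts, the double effect minus the Vhl effect called 1 gene and the double effect minus the sum of single effects 2 (Mxi1 and Adm). The cause was not tested.

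Animals of different groups share numbers, but the numbers did not pair them: deviations of same-numbered libraries from their group means correlated between −0.37 and 0.23. With the replicate number as a block, the double effect minus the Bmal1 effect called 2 genes (not Ankrd37, 1.63, or Ndrg1, 0.39), the double effect minus the sum of single effects called 0 (Mxi1 0.60, edgeR adjusted p = 0.0925), and Ndrg1 was lost from the Vhl effect minus the Bmal1 effect (0.53). The block changed no other call of the 6 genes.

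Scaling by library totals alone turned the sign of 8 values of other genes: Mlxip (0.0091), Ndrg3 (0.035), Phf2 (0.29) and Ufsp2 (0.23) for Vhl loss, and Ndrg2 (0.17), Phf2 (0.26), Ramp1 (0.33) and Slc16a3 (0.0838) for loss of both. It shifted the median of all genes by 0.156 for Bmal1 loss in batch 1 and by −0.167 for diet in controls. Depth limits Adm (1 to 36 counts) and Ankrd37 (1 to 18) in batch 1. Limma on the normalized values was not run for the contrast between batches, whose tables were normalized apart.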
